A study of Mus musculus with 6 samples.

Results

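Tmem41b, Vmp1 and 8 further genes of autophagosome formation were followed in the distal colon of mice without TNFR2, a receptor of the cytokine TNF. The 10 genes were found by symbol among 23108 named rows of the deposited expression table, 1 row for each, and all 10 were high enough to be tested. They are Tmem41b, Tmem41a, Vmp1, Becn1, Wipi2, Atg7, Atg5, Atg16l1, Map1lc3b and Sqstm1. The set was chosen by the FPKM values of Tmem41b, which were already known to be lower in the knockout. Its difference is therefore a description given without a p-value, and nothing is read from whether it was called. The other 9 genes were added for their roles.

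RNA came from the distal colon of male mice aged 8 weeks, 3 wildtype C57Bl/6 and 3 TNFR2-/- labelled with the same strain. Each library is a separate mouse per the labels, and values are FPKM, which by definition scale fragments by mapped total and transcript length. The sources used here do not give the deleted part of the gene, or whether the genotypes were littermates. In bulk tissue, fewer cells of a type and less RNA per cell cannot be told apart.

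Autophagy encloses cytoplasm in a double membrane, the autophagosome, and delivers it to the lysosome. TMEM41B and VMP1 are membrane proteins of the endoplasmic reticulum that move phospholipids between the leaflets of the bilayer, and the growing membrane needs both. A lipid kinase complex built on Beclin 1 marks the site, WIPI2 reads that mark, and ATG7, ATG5 and ATG16L1 attach LC3 to the membrane, where p62, the product of Sqstm1, brings in cargo. In the gut, Atg16l1 and Atg5 are known for their part in Paneth and goblet cell secretion and in the handling of bacteria.

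Tmem41b, its relative Tmem41a and the scramblase gene Vmp1 are shown with their promoters, as related genes of the set. Nothing about the genotype difference is read from these stretches. Each stretch runs from 250 bases before to 50 bases after a RefSeq start site in GRCm38.p6 (mm10) and is written 5′ to 3′ on the gene's own strand, which is the minus strand in each case. The windows are chr7:109986181-109986480 for Tmem41b, chr16:21947503-21947802 for Tmem41a and chr11:86683787-86684086 for Vmp1, the outermost of its 3 windows. RefSeq places the outer end of Tmem41b at 109986804, beyond its window, and the outermost start of Tmem41b was not searched. Capitals mark GGGCGG for the GC box, CCAAT for the box named by its letters, and, for the E-box, CACGTG, which is the core bound by TFEB, a transcription factor of lysosome and autophagy genes. All were searched on both strands.
Tmem41b: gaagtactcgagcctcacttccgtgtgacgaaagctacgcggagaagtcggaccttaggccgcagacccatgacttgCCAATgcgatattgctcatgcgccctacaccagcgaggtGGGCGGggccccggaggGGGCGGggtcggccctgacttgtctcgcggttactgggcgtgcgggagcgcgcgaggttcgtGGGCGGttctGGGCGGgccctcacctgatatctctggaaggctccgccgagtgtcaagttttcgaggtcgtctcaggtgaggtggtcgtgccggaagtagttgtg
Tmem41a: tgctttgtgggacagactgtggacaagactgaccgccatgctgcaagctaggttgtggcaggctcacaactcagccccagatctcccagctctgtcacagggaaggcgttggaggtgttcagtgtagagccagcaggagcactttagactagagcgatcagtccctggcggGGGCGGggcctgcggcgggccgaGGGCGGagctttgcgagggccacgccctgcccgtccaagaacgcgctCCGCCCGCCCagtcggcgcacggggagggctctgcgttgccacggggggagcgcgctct
Vmp1: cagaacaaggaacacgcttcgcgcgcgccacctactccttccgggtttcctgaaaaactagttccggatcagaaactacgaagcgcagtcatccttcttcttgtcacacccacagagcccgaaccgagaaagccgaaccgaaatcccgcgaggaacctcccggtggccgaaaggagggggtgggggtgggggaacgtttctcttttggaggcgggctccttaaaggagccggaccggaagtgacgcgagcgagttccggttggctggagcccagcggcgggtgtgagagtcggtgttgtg

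The Tmem41b window held 4 GC boxes and 1 CCAAT box, the Tmem41a window 4 GC boxes (of which 2 overlap), and the Vmp1 window none of the 3 motifs. GC boxes were present in 35.7%, CCAAT boxes in 37.4% and E-boxes in 7.15% of 32851 promoter windows of the same length. GC content was 63.7%, 66.7% and 60.3% in the 3 windows shown, against a median of 52.7% over all windows. Of the 8 genes of the set with a promoter window, Atg5 and Atg7 held an E-box. The only Atg7 window, chr6:114670846-114671145, lies inside the gene, which starts at 114643127 in RefSeq. The outermost start of Atg7 was not searched. Atg16l1 and Becn1 had no window. These are matches of letters, not binding sites.

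Tmem41b measured 13.5, 14.7 and 13.9 FPKM in wildtype libraries 1, 2 and 3 and 7.88, 8.30 and 8.92 FPKM in the knockout ones, in the same order. Every knockout library was below every wildtype library, and the spread within each genotype was small beside the gap. Its mean was 14.1 ± 0.645 FPKM with TNFR2 and 8.36 ± 0.522 FPKM without it (SD, n = 3 each), so that the knockout stood at 59.5% of wildtype. On the log2(FPKM + 1) scale the difference was -0.69 ± 0.07 (SE), with a 95% interval of -0.85 to -0.52. The set was chosen by these values, so the interval is a description and not a test. The authors' deposited table lists group values of 14.8 and 8.77 FPKM and a log2 fold change of -0.75 for Tmem41b.

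Tmem41b lies on the minus strand of chromosome 7 (109972187 to 109986230 in the deposited table, mm10) and overlaps no other row of that table. GENCODE M21 gives it 3 coding transcripts with 7 to 9 exons. A single value per gene was used, so the difference cannot be placed on an exon or a transcript. RefSeq also lists a pseudogene, Tmem41b-ps, on chromosome 9 (90118879 to 90121163), which has no row of its own here. The sources used here do not say how reads shared with this copy were counted, and the Tmem41b values are uncertain to that extent.

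In the deposited table (mm10) the other genes lie at 21934327 to 21947552 on chromosome 16 (Tmem41a), 86583523 to 86683822 on chromosome 11 (Vmp1), 101279203 to 101302267 on chromosome 11 (Becn1) and 142629584 to 142669370 on chromosome 5 (Wipi2). Atg7 lies at 114643097 to 114969986 on chromosome 6, Atg5 at 44268358 to 44364291 on chromosome 10 and Atg16l1 at 87756011 to 87792428 on chromosome 1. Map1lc3b lies at 121590468 to 121598047 on chromosome 8 and Sqstm1 at 50174851 to 50210928 on chromosome 11. None of them shares chromosome 7 with Tmem41b.

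Tmem41a encodes the closest relative of TMEM41B. It measured 21.4, 24.8 and 24.9 FPKM across wildtype and 22.7, 24.3 and 24.7 FPKM across knockout mice. The genotypes overlapped almost fully, and the log2 difference was 0.01 ± 0.08 (SE, 95% interval -0.18 to 0.20; limma, Benjamini-Hochberg adjusted p = 0.957). The sign of this difference changed when single libraries were left out, with values from -0.06 to 0.05.

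Vmp1, the other scramblase gene of this step, measured 32.7, 41.8 and 30.6 FPKM across wildtype and 30, 33.0 and 35.7 FPKM across knockout mice. Wildtype library 2 stood above the rest, and all other libraries lay within 30 to 35.7 FPKM. The log2 difference was -0.08 ± 0.13 (SE, 95% interval -0.38 to 0.22; limma, Benjamini-Hochberg adjusted p = 0.786), and it was 0.05 without wildtype library 2. Vmp1 was the most variable gene of the set, with a coefficient of variation of 17.0% in wildtype.

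The levels of these genes were also set against each other within each library. The ratio of Tmem41b to Tmem41a was 0.629, 0.594 and 0.560 across wildtype and 0.348, 0.342 and 0.361 across knockout mice. The ratio of Tmem41b to Vmp1 was 0.412, 0.353 and 0.456 across wildtype and 0.263, 0.251 and 0.249 across knockout mice. Both ratios were lower in every knockout library, which the Tmem41b values that chose the set fix in the main. The ratio of Tmem41a to Vmp1, which leaves Tmem41b out, was 0.688 ± 0.114 in wildtype and 0.727 ± 0.0335 in knockout (SD, n = 3 each) and overlapped. Tmem64, which belongs to the same protein family, measured 13.0 ± 0.0568 and 13.4 ± 1.79 FPKM and was picked with these values in view (limma, Benjamini-Hochberg adjusted p = 0.881).

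**Figure D1:**
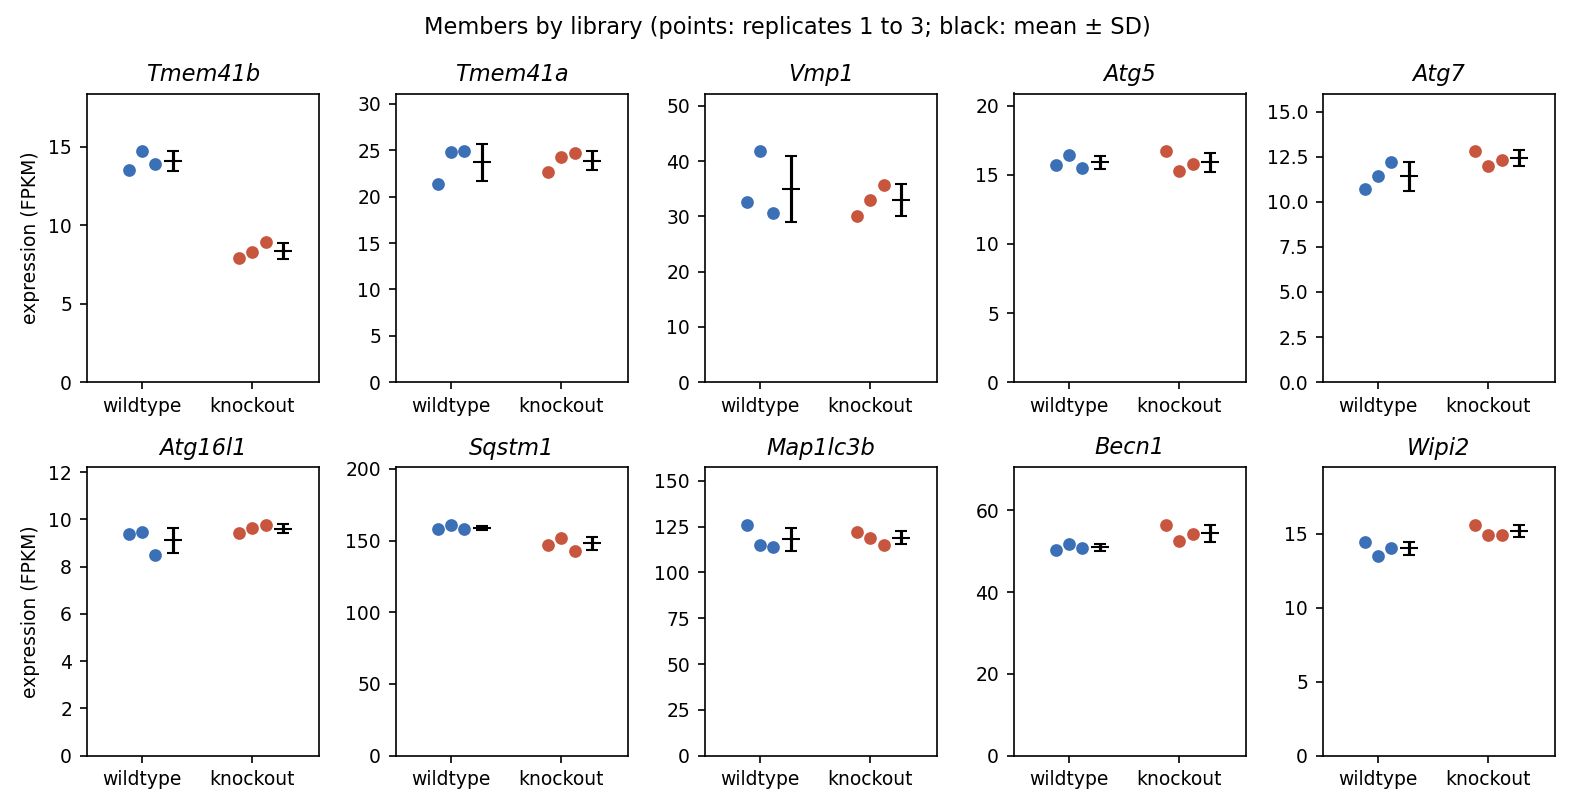
Expression in FPKM (vertical axes, each from 0) of the 10 genes in each library, with wildtype in blue and knockout in red; the black bar is the mean with its SD (n = 3). The knockout points of Tmem41b, 7.88 to 8.92 FPKM, lie below its wildtype points, 13.5 to 14.7 FPKM, while in the other panels the groups overlap or lie close together.

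Becn1 and Wipi2 act where the membrane starts. Becn1, the scaffold of the lipid kinase complex, measured 50.2, 51.9 and 50.8 FPKM across wildtype and 56.5, 52.4 and 54.2 FPKM across knockout mice. Wipi2, the reader of the lipid mark, measured 14.4, 13.5 and 14.0 FPKM across wildtype and 15.6, 14.9 and 14.9 FPKM across knockout mice. All knockout values of both genes lay above all wildtype values, by a small margin. The log2 differences were 0.09 ± 0.06 (SE, 95% interval -0.06 to 0.24) for Becn1 and 0.11 ± 0.06 (95% interval -0.04 to 0.25) for Wipi2. Neither passed in limma (Benjamini-Hochberg adjusted p = 0.497 and 0.410). The row of Cntd1 shares the Becn1 locus in the deposited table, and library strand is not given.

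Atg7, Atg5 and Atg16l1 serve the conjugation step. Atg7, the enzyme that activates the ubiquitin-like ATG proteins, measured 10.7, 11.4 and 12.2 FPKM across wildtype and 12.8, 12 and 12.3 FPKM across knockout mice. Atg5, which is joined to ATG12, measured 15.7, 16.4 and 15.5 FPKM across wildtype and 16.7, 15.3 and 15.8 FPKM across knockout mice. Atg16l1, which directs that conjugate to the membrane, measured 9.36, 9.47 and 8.49 FPKM across wildtype and 9.43, 9.63 and 9.77 FPKM across knockout mice. The genotypes overlapped for each of these genes. Their log2 differences were 0.10, 0.00 and 0.07, with 95% intervals of -0.06 to 0.27, -0.14 to 0.15 and -0.09 to 0.23 for Atg7, Atg5 and Atg16l1. None passed in limma (Benjamini-Hochberg adjusted p = 0.488, 0.980 and 0.613). In the deposited table Atg7 shares its locus with Vgll4, Atg5 with Mir1929 and Atg16l1 with Scarna6.

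Map1lc3b and Sqstm1 encode LC3B, which coats the membrane, and p62, a cargo receptor that is itself degraded by autophagy. Map1lc3b measured 126, 115 and 114 FPKM across wildtype and 122, 119 and 115 FPKM across knockout mice, with a log2 difference of 0.01 ± 0.07 (SE, 95% interval -0.16 to 0.18). Sqstm1 measured 158, 161 and 158 FPKM across wildtype and 147, 152 and 143 FPKM across knockout mice. Sqstm1 was thus lower in every knockout library, at 92.7% of the wildtype mean, with a log2 difference of -0.11 ± 0.06 (SE, 95% interval -0.26 to 0.04). The row of 3010026O09Rik shares the Sqstm1 locus. In limma the Benjamini-Hochberg adjusted p was 0.958 for Map1lc3b and 0.429 for Sqstm1. Messenger RNA of Map1lc3b and Sqstm1 does not measure autophagic flux, which is read from their proteins.

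In a table where 0.288% of 14564 tested genes were called and 0.103% were called lower, 1 gene of the 10 was called, Tmem41b. That count was fixed by the choice of the set and nothing is read from it. Nor is the call a steady one: it was absent in 5 of the 6 fits that left out 1 library, all but the fit without wildtype library 2, and with a skin or skeletal muscle covariate or a replicate block. Of the other 9 genes none was called (limma, Benjamini-Hochberg adjusted p from 0.410 to 0.980), and 0 had an unadjusted p under 0.05, beside 16.2% of all tested genes (9.91% lower and 6.3% higher in the knockout). Genotypes did not overlap for 3 of these 9, Becn1 and Wipi2 higher and Sqstm1 lower, beside 21.8% of all tested genes (12.5% lower and 9.3% higher). Their log2 differences lay between -0.11 and 0.11 with a median of 0.01, and the median of all tested genes was -0.03. The lowest bound of their 95% intervals was -0.38, for Vmp1, and the highest was 0.27, for Atg7.

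**Figure D2:**
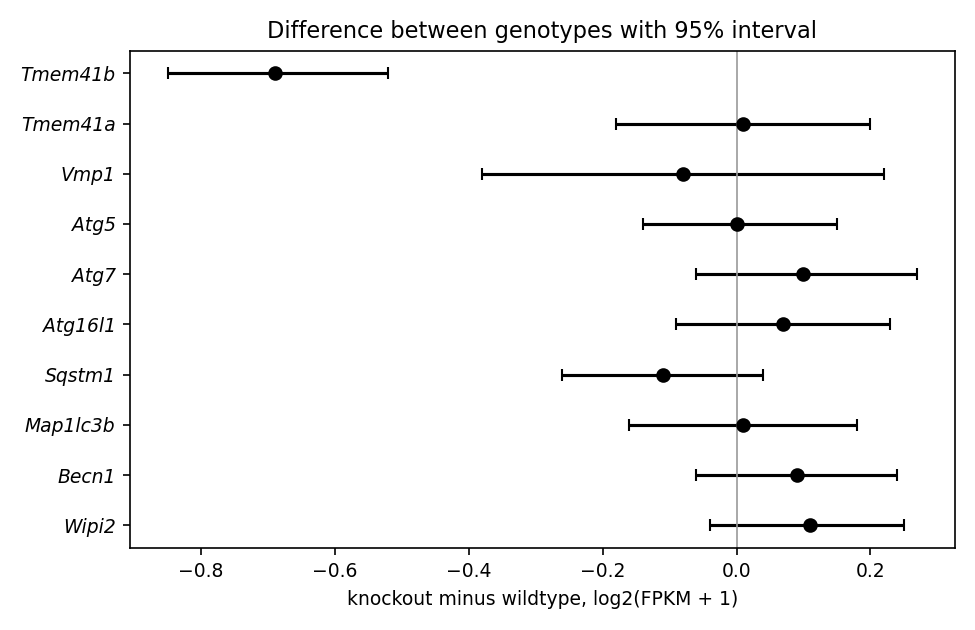
Difference between knockout and wildtype on the log2(FPKM + 1) scale (horizontal axis) for the 10 genes; points are limma estimates and bars their 95% intervals. The interval of Tmem41b runs from -0.85 to -0.52, and the intervals of the other 9 genes include 0. The set was chosen by the Tmem41b values, so its interval is a description and not a test.

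Ordered by mean over the 6 libraries, the levels per transcript length were 153 FPKM for Sqstm1, 119 for Map1lc3b, 52.7 for Becn1, 34.0 for Vmp1, 23.8 for Tmem41a, 15.9 for Atg5, 14.6 for Wipi2, 11.9 for Atg7, 11.2 for Tmem41b and 9.36 for Atg16l1. The first 5 were apart from each other and from the next gene in every library. Atg5 and Wipi2 overlapped in range, although Atg5 was higher in 6 of 6 libraries. The place of Tmem41b depended on the genotype: it was above Atg7 in the 3 wildtype libraries and below Atg7 and Atg16l1 in the 3 knockout libraries. Sqstm1 and Map1lc3b were above 96.1% and 95% of the tested genes, and Tmem41b was above 56.3%.

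Beyond these 10 genes, 88 tested genes of 9 lists covering autophagy and the lipid processes tied to the endoplasmic reticulum were read in the same fit. None of the 88 was called in limma, in either direction, beside 0.288% of all tested genes (lowest Benjamini-Hochberg adjusted p = 0.212). At an unadjusted p under 0.05, 6 were higher and 6 lower, 13.6% of the 88 beside 16.2% of all tested genes (9.91% lower and 6.3% higher). In the single lists, which are small, this share ran from 0% to 33.3%. Their median log2 difference was -0.01.

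Of the 5 initiation complex genes none was called, and at an unadjusted p under 0.05 1 was higher. This was Rb1cc1, picked after its values were seen, at 8.63, 8.90 and 8.43 against 9.69, 10.1 and 9.67 FPKM. Atg101, listed as 9430023L20Rik, measured 53.7 ± 3.67 FPKM with TNFR2 and 46.4 ± 4.24 FPKM without it, and Atg13 15.0 ± 0.102 and 15.4 ± 0.387 FPKM (SD, n = 3 each). Among 7 other genes of the lipid kinase complex none was called, and 1 had an unadjusted p under 0.05. This was Pik3c3, the gene of the catalytic subunit, which measured 17.6, 19.7 and 18.2 FPKM across wildtype and 24.7, 22.6 and 21.6 FPKM across knockout mice. The Pik3c3 groups did not overlap, and its log2 difference of 0.30 ± 0.08 (SE) missed the threshold (limma, Benjamini-Hochberg adjusted p = 0.212). Nrbf2, a regulatory subunit, measured 14.0 ± 0.689 and 13.3 ± 1.03 FPKM.

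Among 9 other genes of membrane supply none was called, with log2 differences from -0.28 to 0.21. Zfyve1, which marks the membrane site where autophagosomes start, was the 1 gene with an unadjusted p under 0.05 and was picked after its values were seen, at 13.7, 13.9 and 14.5 against 16.2, 17.5 and 15.4 FPKM. Atg9a, the scramblase of the vesicles that seed the membrane, measured 18.7 ± 1.01 FPKM with TNFR2 and 19.2 ± 0.214 FPKM without it, and Wdr45l, now Wdr45b, a relative of Wipi2, 21.4 ± 0.847 and 21.7 ± 1.83 FPKM (SD, n = 3 each). Of 8 further conjugation genes and 3 further ATG8 genes none was called, and 0 had an unadjusted p under 0.05. Atg12 measured 21.8 ± 0.896 and 22.1 ± 0.665 FPKM, and Atg4d, a protease that processes ATG8 proteins, 19.7 ± 1.69 and 21.8 ± 2.60 FPKM. Gabarapl2 measured 96.7 ± 5.54 and 101 ± 3.82 FPKM, and Map1lc3a 78.0 ± 15.5 and 63.9 ± 6.82 FPKM.

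None of 13 further cargo receptor genes was called, and 0 had an unadjusted p under 0.05. Tax1bp1 measured 174 ± 19.0 FPKM with TNFR2 and 205 ± 16.4 FPKM without it, and Bnip3l, a receptor for mitochondria, 51.7 ± 2.16 and 51.4 ± 3.40 FPKM (SD, n = 3 each). None of 19 fusion and lysosome genes was called, and 2 were lower at an unadjusted p under 0.05. These were the lysosomal protease genes Ctsl and Ctsd, picked after their values were seen, which measured 157, 149 and 160 against 132, 133 and 131 FPKM and 216, 191 and 221 against 171, 181 and 178 FPKM. Both were lower in every knockout library, with log2 differences of -0.23 and -0.24, and neither passed (limma, Benjamini-Hochberg adjusted p = 0.227 and 0.268). Rab7 measured 202 ± 16.8 and 184 ± 10.6 FPKM and Lamp1, a lysosomal membrane protein gene, 201 ± 6.36 and 195 ± 10.1 FPKM. Macrophages are rich in Ctsl and Ctsd. Summed levels of all 8 macrophage markers, none at 0 in every library, were 472 to 538 FPKM with TNFR2 and 277 to 404 FPKM without it, and their part in the Ctsl and Ctsd values was not tested.

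Of 12 upstream kinases and transcription factors none was called. At an unadjusted p under 0.05, 1 was higher and 3 lower, 33.3% of the 12 beside 16.2% of all tested genes. Tfeb, also picked after its values were seen, measured 15.5, 14.8 and 14.5 FPKM across wildtype and 11.8, 12.2 and 13.2 FPKM across knockout mice, a log2 difference of -0.25 ± 0.07 (SE; limma, Benjamini-Hochberg adjusted p = 0.218). Its relative Tfe3 measured 14.2, 13.5 and 14.3 against 13.0, 11.8 and 12.3 FPKM (adjusted p = 0.282 in limma). The remaining 2 were the AMP kinase gene Prkaa1, lower at 12.4, 11.2 and 11.8 against 13.2, 14.1 and 12.9 FPKM in wildtype, and Mlst8, a subunit gene of the mTOR complexes, higher at 6.19, 5.96 and 6.25 against 4.55, 5.77 and 4.74 FPKM, both picked after their values were seen. The most highly expressed genes of this list, the AMP kinase subunit genes Prkag1 and Prkab1, measured 50.7 ± 1.83 and 32.5 ± 4.28 FPKM with TNFR2 and 50.2 ± 4.40 and 35.8 ± 4.63 FPKM without it (SD, n = 3 each).

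TMEM41B is also known for lipoprotein export and lipid droplets, and of 12 tested genes of these processes none was called. At an unadjusted p under 0.05, 2 were higher and 1 lower, 25% of the 12 beside 16.2% of all tested genes. Surf4, a cargo receptor of the endoplasmic reticulum, measured 79.6 ± 3.75 FPKM with TNFR2 and 75.8 ± 6.12 FPKM without it (SD, n = 3 each). The lipid droplet coat gene Plin2 measured 77.8, 75.1 and 76.8 FPKM across wildtype and 89.0, 83.6 and 90.2 FPKM across knockout mice, without overlap (limma, Benjamini-Hochberg adjusted p = 0.271). Apob and Fitm2, named after their values were seen, had log2 differences of 0.46 ± 0.12 and -0.46 ± 0.12 (SE; limma, Benjamini-Hochberg adjusted p = 0.212 and 0.218). Apob, the gene of a structural lipoprotein component, was low in both genotypes, at 0.816, 0.948 and 0.556 against 1.19, 1.59 and 1.52 FPKM.

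**Figure D3:**
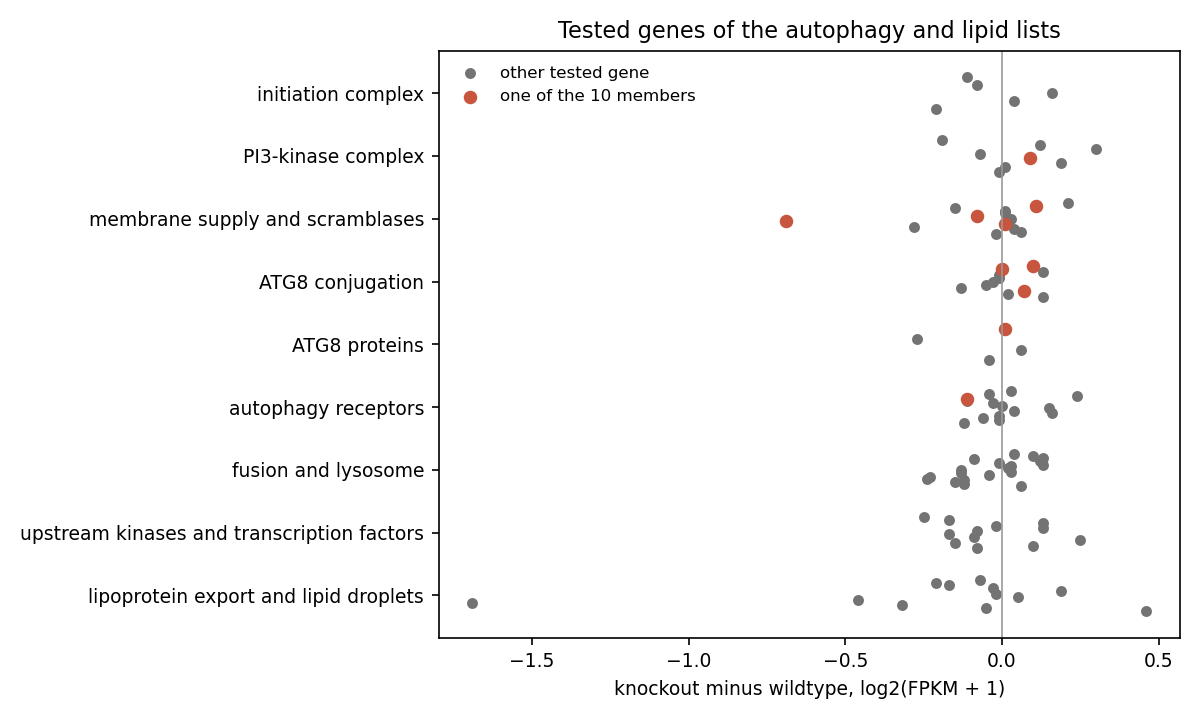
Difference between knockout and wildtype on the log2(FPKM + 1) scale (horizontal axis) for every tested gene of the 9 lists (rows); red points are the 10 genes described above and grey points the others. Tmem41b stands at -0.69, and the grey point at -1.69 is Fitm1, which measured 5.55 to 20.1 FPKM with TNFR2 and 0.243 to 4.89 FPKM without it and did not pass the test. Fitm1 was named after its values were seen.

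Around Tmem41b on chromosome 7, 16 tested rows lie within 500 kb on either side. None of them was called (lowest unadjusted p = 0.0257), 2 had an unadjusted p under 0.05 (Dennd5a and 1 of the rows of Sbf2, the latter picked after its values were seen), and their median log2 difference was -0.03. The Sbf2 row was low, at 1.09 and 2.07 FPKM on average, and another row of Sbf2 had a log2 difference of 0.00. Within 2 Mb, 0 of 30 rows were called in limma, and 3 had an unadjusted p under 0.05. Over all tested genes that share was 16.2%. The nearest tested gene on 1 side is Dennd5a, an activator of Rab GTPases, 11.8 kb away. Dennd5a measured 15.6, 11.7 and 14.5 FPKM across wildtype and 9.65, 12.2 and 9.85 FPKM across knockout mice, a log2 difference of -0.36 ± 0.13 (SE; limma, Benjamini-Hochberg adjusted p = 0.274). Its groups overlapped, since wildtype library 2 was below knockout library 2. On the other side, small RNA genes left aside, Ipo7, a nuclear import receptor gene 32.0 kb away, measured 29.1 ± 2.37 FPKM with TNFR2 and 27.9 ± 1.6 FPKM without it (SD, n = 3 each; limma, Benjamini-Hochberg adjusted p = 0.725).

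**Figure D4:**
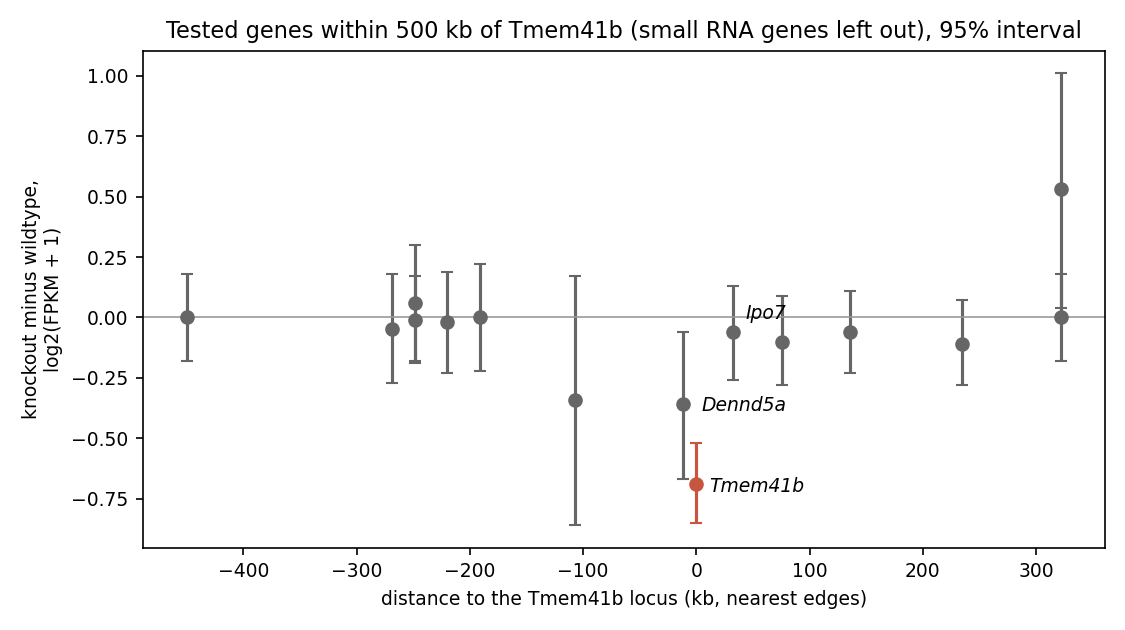
Difference between knockout and wildtype on the log2(FPKM + 1) scale (vertical axis) against distance from the Tmem41b locus in kb for tested genes within 500 kb, small RNA genes left out; bars are 95% intervals. Tmem41b stands at -0.69 and its nearest neighbours Dennd5a and Ipo7 at -0.36 and -0.06.

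Genes with the most similar profile to Tmem41b were ranked by Pearson's r of log2(FPKM + 1) over the 6 libraries among 10774 genes. The highest were Dusp4 (r = 0.995), Agrn (0.992), Ankrd13b (0.992), Kazald1 (0.989) and Cirh1a (0.988), and 55 genes reached 0.95. These values are a description over 6 libraries that share the split by genotype. Their log2 differences, from -0.36 for Dusp4 to -0.17 for Agrn, have the direction that this choice gives them and were not tested. By the same measure r to Tmem41b was 0.86 for Sqstm1, 0.38 for Vmp1, 0.06 for Tmem41a, -0.06 for Atg5, -0.23 for Map1lc3b, -0.55 for Atg16l1, -0.65 for Atg7, -0.80 for Becn1 and -0.92 for Wipi2. The genes at both ends, Sqstm1 and Becn1 with Wipi2, are those whose genotypes did not overlap.

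The libraries also differed in markers of tissue next to the distal colon, and these values stand beside the Tmem41b result. All 10 skin markers were found and none was at 0 in every library. Their summed level was 1089, 418 and 1141 FPKM across wildtype and 62.7, 544 and 994 FPKM across knockout mice. For the 9 of 10 skeletal muscle markers found, also with none at 0 in every library, the sums were 6983, 2141 and 2494 FPKM against 120, 1550 and 1105 FPKM. The skin sums overlapped between the genotypes, while the skeletal muscle sums were lower in every knockout library, as Tmem41b was. The macrophage sums given above were also lower in every knockout library, at 277 to 404 FPKM against 472 to 538 FPKM in wildtype. Of 7 hair follicle markers 6 were found, and these summed to between 10.4 and 69.4 FPKM with TNFR2 and between 1.02 and 12.3 FPKM without it. In fits with the skin or the skeletal muscle markers as a covariate, the Tmem41b log2 difference was -0.66 in each, beside -0.69 without one. The muscle sums split by genotype, so that fit cannot tell their part from that of the genotype. The part of hair follicle tissue and of macrophages in the Tmem41b values was not tested.

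**Figure D5:**
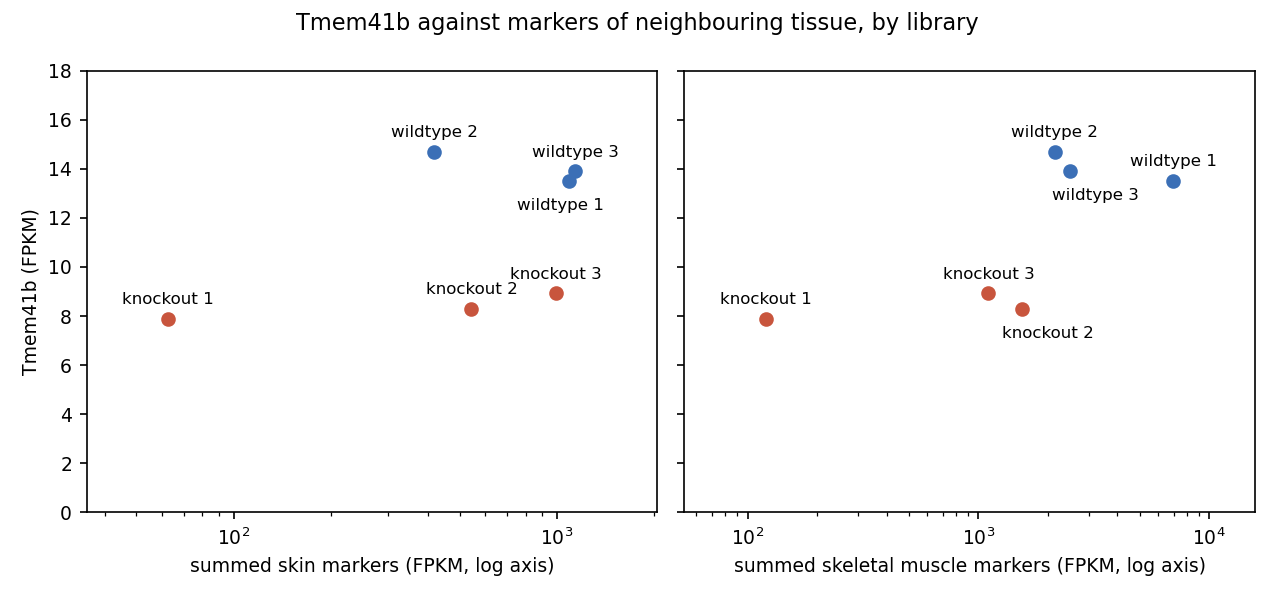
Tmem41b in FPKM (vertical axis, from 0) against the summed FPKM of skin (left) and skeletal muscle markers (right; log axes), with 1 labelled point per library, wildtype in blue and knockout in red. The wildtype libraries lie between 13.5 and 14.7 FPKM and the knockout libraries between 7.88 and 8.92 FPKM in both panels. The genotypes overlap along the skin axis (418 to 1141 and 62.7 to 994 FPKM) and not along the skeletal muscle axis (2141 to 6983 and 120 to 1550 FPKM).

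Colon epithelium markers, of which 8 of 10 were found and none was at 0 in every library, summed to between 2137 and 2933 FPKM with TNFR2 and between 2355 and 3359 FPKM without it. Smooth muscle markers, 6 of 6 found, summed to between 6275 and 10024 FPKM and between 5778 and 7945 FPKM. The 8 lymphocyte markers summed to between 11.1 and 22.5 FPKM and between 5.82 and 20.1 FPKM. No marker of any of these lists was called in limma. Tnfrsf1b, the targeted gene, measured 7.49 to 8.20 FPKM in the libraries labelled wildtype and 0.924 to 1.17 FPKM in those labelled knockout. Judged by the smallest steps in FPKM, the deepest library held 1.49 times the reads of the shallowest, if values were scaled by mapped total alone. The number of reads behind each FPKM value is unknown.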

How the data were processed

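Tophat2 with Bowtie2 was the aligner, Cufflinks built transcripts and Cuffdiff 2 gave the authors' tests, per the labels' design text. The submitters' processing notes name mm10. The deposited values are FPKM per gene and library, per the file headers, beside group values, log2 fold changes and p-values and q-values from the authors' Cuffdiff run. The sources used here do not give tool versions, the annotation or how libraries were scaled. Deposited starts count from 0 and are given 1-based.

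Values were tested as log2(FPKM + 1) with limma 3.58.1 (R 4.3.3, intensity trend, robust moderation, no covariate, all 6 libraries), knockout minus wildtype. Differences on this scale understate changes of low genes. Rows without a gene name, 6.13% of the table and 17.7% of summed FPKM, were left out, and the 14564 genes whose mean reached 0.5 FPKM were tested. A gene is called when its Benjamini-Hochberg adjusted p is under 0.05. The procedure was run on simulated data with independent noise per gene, which lack the tissue differences between libraries seen here. Tables came from pandas 2.3.3 and numpy 2.4.6 in Python 3.11.15, figures from matplotlib 3.10.9.

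The genes and lists were chosen with earlier results of these data known. Named in the text by rule were the 10 genes, in each list up to 3 called genes or else the 2 with the highest level, the nearest tested gene on each side of Tmem41b, and the 5 genes most like it (mean of at least 2 FPKM). Also named, after their values were seen, were Rb1cc1, Zfyve1, Tmem64, Ctsl, Ctsd, Tfeb, Tfe3, Prkaa1, Mlst8, Apob, Fitm1, Fitm2, Sbf2 and Snora3. Of 100 list genes, 98 matched a row of a single gene, some by an older symbol. Alternatives were another pseudocount, other filters, other scalings, plain moderation, a replicate block, tissue covariates and leaving out libraries.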

Additional observations from a re-analysis of the deposited data

How the results depend on the processing

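The lower Tmem41b level kept its direction and size under all 16 alternatives, with log2 differences from -0.74 to -0.65. It was not called in 8 of the 16. Since its own values chose the set, no p-value is given and nothing is read from the calls. Leaving out single libraries gave differences from -0.73 to -0.65, from 0 to 1 called genes of the set, and from 21 to 74 called genes in all, against 42 with every library. The largest count came without wildtype library 2 and the smallest without knockout library 3. The Tmem41b call was lost without wildtype 1 or 3 or any knockout library. The fit without wildtype library 2, which also had 1 library fewer, kept the call. The cause of the loss was not tested.

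With the skin or the skeletal muscle covariate (difference -0.66 in each), 0 genes of the set were called and 27 and 20 in all. With the replicate number as a block the difference was -0.69, 0 genes of the set were called and 24 in all. Deviations of same-numbered libraries from their group means correlated at r = -0.375, -0.337 and 0.209 for numbers 1, 2 and 3. Only the libraries numbered 3 correlated best with their own number. With 3 libraries per genotype, these values cannot settle whether the numbers pair the mice. In the fit of wildtype library 2 and knockout libraries 2 and 3, chosen after seeing the data, 130 genes were called in all and 1 row near Tmem41b, the small RNA gene Snora3. With all 6 libraries Snora3 had an adjusted p of 0.443 in limma. The lone wildtype library of this fit is assumed to vary like the knockout ones, so its calls support nothing here.

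The other 9 genes of the set stayed uncalled in all 144 alternative values, and 15 changed sign, as did 29 of 543 for other named genes, of which 0 were called. Left-out libraries moved Tmem41a from -0.06 to 0.05, Vmp1 from -0.17 to 0.05, Atg5 from -0.03 to 0.03, Map1lc3b from -0.01 to 0.05, Wdr45l from -0.04 to 0.08, Atg12 from -0.01 to 0.04, Bnip3l from -0.06 to 0.03, Prkag1 from -0.07 to 0.05, Ipo7 from -0.10 to 0.00 and Tmem64 from -0.05 to 0.13. Other changes of sign came with the skin covariate (Atg5 -0.03, Map1lc3b 0.00, Bnip3l 0.02), the muscle covariate (Atg5 -0.07, Wdr45l -0.03, Atg12 -0.05, Atg4d -0.07, Map1lc3a 0.07, Bnip3l 0.04, Prkab1 -0.13), the 3-library fit (Tmem41a -0.02, Atg5 -0.07, Wdr45l -0.05, Atg9a -0.03, Atg12 -0.02, Atg4d -0.06, Map1lc3a 0.10, Bnip3l 0.02, Prkab1 -0.16), median scaling (Bnip3l 0.01, Prkag1 0.00) and the TPM scale (Bnip3l 0.03, Prkag1 0.02). The cause of these shifts was not tested.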
